A study of Mus musculus with 2 samples.

Results

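The 7 genes described here belong to nitric oxide, arginine and polyamine metabolism and were followed in single-barcode RNA of mouse liver: Nos2, Gch1, Slc7a2, Arg2, Odc1, Smox and Sat1. They are 7 of the 32287 features of the deposited matrices and were listed by symbol, chosen by their levels, their ratio between the libraries and their detection beside Nos2 in earlier results of these data. These measures are therefore given as description, and nothing was tested. Wild-type C57BL/6J mice received at 4 weeks of age an adeno-associated virus (AAV) with either a scrambled control sequence, here called scramble, or a hairpin directed at Bicd2, here called shBicd2. Mice of both groups were given concanavalin A (Con A), a plant lectin used to model acute T cell hepatitis, into a vein at 15 mg/kg 3 weeks later, and livers were taken after 6 h. Each group is 1 library, so no animal without Con A and no replicate was available here, and the sources used here do not say how many mice went into a library.

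Inducible nitric oxide synthase, the product of Nos2, makes nitric oxide and citrulline from arginine and is switched on in hepatocytes and macrophages by inflammatory cytokines. It needs tetrahydrobiopterin, whose synthesis starts with GTP cyclohydrolase, the product of Gch1, and it draws arginine that enters the cell through cationic amino acid transporters such as Slc7a2. Arginase competes for the same arginine and yields ornithine, which ornithine decarboxylase, encoded by Odc1, turns into putrescine, the first polyamine. Polyamines are broken down along 2 routes: spermine oxidase (Smox) oxidises spermine and releases hydrogen peroxide, and spermidine/spermine acetyltransferase (Sat1) tags polyamines for oxidation or export.

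The scramble-labelled library held 2805 barcodes with 5086306 UMIs (unique molecular identifiers, each standing for 1 captured transcript), and the shBicd2-labelled library held 3038 barcodes with 5624055 UMIs. After filtering, 2729 and 2941 barcodes were kept, and the libraries share 3 barcode sequences. The target of the hairpin, Bicd2, did not stand lower in the shBicd2-labelled library: its level was 16.4 (13 to 20.4) CPM (UMIs of a gene per 1000000 UMIs of the set) in the scramble-labelled library and 19.7 (16.2 to 23.9) CPM in the other, so directions below refer to the labels. All intervals are 95% and cover counting error only.

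Hepatocyte barcodes were those with no UMI of Ptprc, the pan-leukocyte gene, at least 10 UMIs of 9 hepatocyte markers and under 3 UMIs of other cell types' markers. They numbered 1909 of 2729 in the scramble-labelled library and 2272 of 2941 in the shBicd2-labelled library, with medians of 1846 and 1694 UMIs. The libraries also differed within this gate. An EGFP UMI was present in 7.12% and 29.3% of hepatocyte barcodes, the median mitochondrial share was 0.167% and 0.326%, the nuclear RNA Malat1 stood at 35369 and 26172 CPM, and neutrophil markers, all 8 of them detected in both, summed to 41.9 and 138 CPM. Macrophage markers summed to 17.9 and 32.0 CPM, with 1 of 10 at 0 in each library. The part of these differences in the results was not tested, except where a value is given beside a result.

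Ptprc-positive barcodes, with at least 1 Ptprc UMI, numbered 152 and 114, with medians of 1187.5 and 1080.5 UMIs. They are not a clean set of leukocytes. Of them, 125 (82.2%) in the scramble-labelled library and 73 (64.0%) in the shBicd2-labelled library held under 2 distinct markers of any immune class, and 94 and 77 held a single Ptprc UMI. Hepatocyte markers summed to 8865 and 12150 CPM there, against 11526 and 14727 CPM in the hepatocyte barcodes. In droplet data, free RNA puts UMIs of one cell type into barcodes of another, and values in Ptprc-positive barcodes are read with that in view.

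In hepatocyte barcodes, Nos2, Odc1, Smox and Sat1 stood more than 1.5-fold higher in the shBicd2-labelled library, Slc7a2 was higher by less, and Gch1 was level. Thus 4 of the 6 genes with at least 50 UMIs over both libraries were past 1.5-fold higher and 0 were past 1.5-fold lower, where 22% of 9250 genes with as many UMIs were past it higher and 9.51% lower. The median log2 ratio was 0.90 over these 6 genes and 0.13 over all 9250. Scaling by edgeR's TMM factors in place of class totals lowers every hepatocyte ratio by 1.11-fold, a shift of 0.15 on the log2 scale. With it, 16% of genes were past 1.5-fold higher and 14.9% lower, the share of higher among all genes past 1.5-fold went from 69.8% to 51.7%, and Odc1, at 1.45, was under 1.5-fold.

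**Figure D1:**
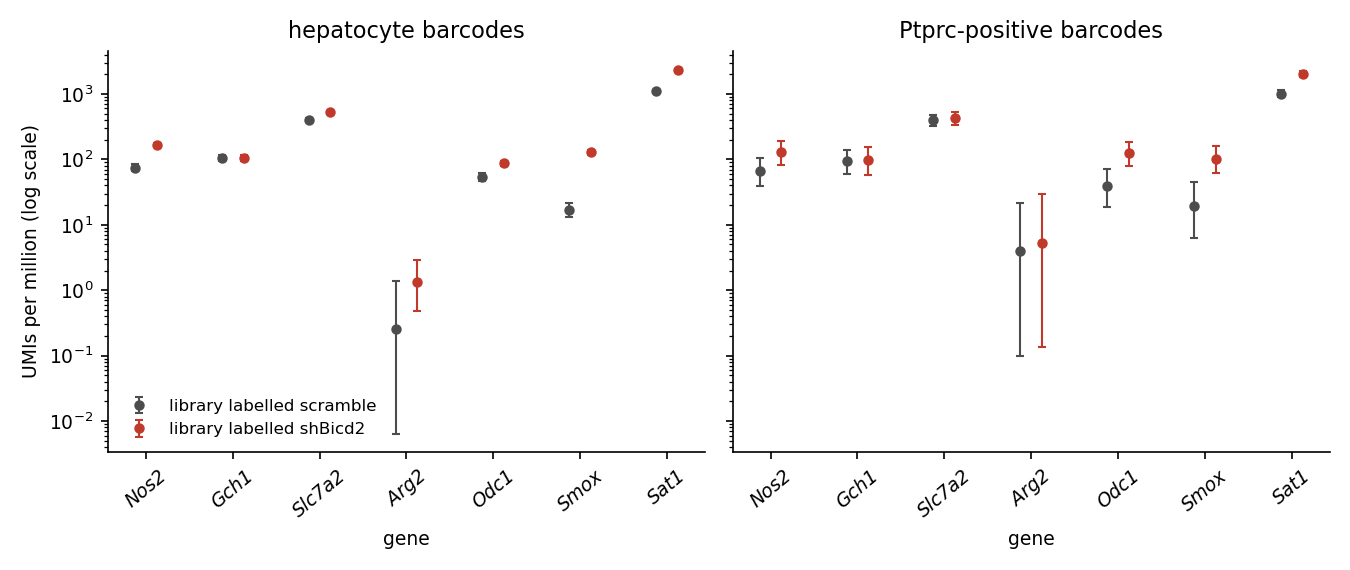
Level of each of the 7 genes in CPM (log scale) in hepatocyte barcodes (left) and Ptprc-positive barcodes (right). Points are the 2 libraries, 1 per group, and bars are exact 95% Poisson intervals that cover counting error only. In hepatocyte barcodes Smox lies at 16.9 and 128 CPM and Gch1 at 105 CPM in both libraries, while Arg2 rests on 1 and 6 UMIs.

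Nos2 (ENSMUSG00000020826, GRCm38 chromosome 11, 78920787 to 78960254, plus strand) was counted with 297 UMIs in hepatocyte barcodes of the scramble-labelled library, or 75.0 (66.7 to 84.0) CPM, and 740 UMIs in the shBicd2-labelled library, or 164 (153 to 177) CPM. The ratio was 2.19 (1.92 to 2.52), higher than that of 93.0% of the genes. At least 1 Nos2 UMI was found in 10.0% (8.70% to 11.4%) and 17% (15.5% to 18.6%) of hepatocyte barcodes. With every barcode thinned to 1000 UMIs and 262 and 454 shallower ones left out, the shares were 5.34% and 10.8%. Barcodes with stellate or fibroblast markers outside the gate held Nos2 in 1 of 18 and 2 of 25. Those with endothelial markers held it in 0 of 6 and 0 of 13. Median depths were 703.5 and 823 UMIs in the former and 759.5 and 885 UMIs in the latter. Barcodes with neutrophil markers outside the gate, with median depths of 1823 and 1319 UMIs, held Nos2 in 2 of 23 and 17 of 104. Its level there was 41.0 (4.97 to 148) and 191 (138 to 257) CPM, and hepatocyte markers made up a median of 0.931% and 1.56% of UMIs. Kept barcodes in neither the hepatocyte nor the Ptprc-positive set held Nos2 at 41.5 and 187 CPM. How much of these values is free RNA was not tested. Both the share of positive hepatocyte barcodes and the UMIs in each were higher in the shBicd2-labelled library. A positive hepatocyte barcode held 1.55 and 1.91 Nos2 UMIs on average, 26 and 80 barcodes held at least 3, and the highest barcode held 6 and 10.

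Gch1 (ENSMUSG00000037580, chromosome 14, 47153895 to 47189413, minus strand), which makes the precursor of the cofactor that the synthase needs, stood at like levels in both libraries. It had 417 and 473 UMIs in the scramble-labelled and shBicd2-labelled libraries, a level of 105 CPM in each and a ratio of 0.999 (0.874 to 1.14), and it was detected in 17.8% and 17% of hepatocyte barcodes. With TMM scaling the ratio was 0.898 (0.785 to 1.03). Both intervals cover counting error only, so they do not bound the difference between the groups. The percentile of Gch1 among all gene ratios was 40.1.

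Slc7a2 (ENSMUSG00000031596, chromosome 8, 40862396 to 40922308, plus strand), the arginine transporter, was detected in 43.9% and 51.4% of hepatocyte barcodes. Its level was 404 (385 to 425) CPM in the scramble-labelled library and 536 (515 to 558) CPM in the shBicd2-labelled library, a ratio of 1.33 (1.24 to 1.41), or 1.19 with TMM scaling. Arg2 (ENSMUSG00000021125, chromosome 12, 79130777 to 79156301, plus strand), the mitochondrial arginase, was hardly detected. It had 1 UMI in 1909 barcodes and 6 UMIs in 2272, and its ratio of 5.28 (0.641 to 243) gives no direction.

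The polyamine genes spread widely. The level of Odc1 (ENSMUSG00000011179, chromosome 12, 17544794 to 17551505, plus strand) was 53.8 (46.8 to 61.5) and 86.9 (78.5 to 96.0) CPM, a ratio of 1.62 (1.36 to 1.92). Smox (ENSMUSG00000027333, chromosome 2, 131491496 to 131525922, plus strand) was counted with 67 UMIs in the scramble-labelled library, or 16.9 (13.1 to 21.5) CPM, and 574 in the shBicd2-labelled library, or 128 (117 to 139) CPM. This ratio of 7.55 (5.85 to 9.87) was the highest of the 6 genes with at least 50 UMIs and exceeded 99.6% of all genes. Smox was found in 3.2% and 18.3% of hepatocyte barcodes, and in 1.70% and 11.7% after thinning. Sat1 (ENSMUSG00000025283, chromosome X, 155213132 to 155216449, minus strand) stood at 1103 (1071 to 1136) and 2363 (2319 to 2409) CPM, a ratio of 2.14 (2.07 to 2.22).

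Sat1 had the highest variance over mean of the 7 genes, a measure that grows with the level. Its UMIs per barcode had a variance of 12.8 times their mean in the scramble-labelled library and 23.0 times in the shBicd2-labelled library, against 2.12 and 3.02 for Nos2. The 10% of barcodes richest in Sat1 held 65.1% and 63.9% of its UMIs. For Nos2 these shares were 100% and 78.4%. Only 10.0% and 17% of barcodes held any Nos2, so the shares do not compare how concentrated the 2 genes are. Of all hepatocyte barcodes, 115 and 306 barcodes held at least 10 Sat1 UMIs, and the highest held 58 and 111. The share of barcodes with Sat1 differed less than the level, with 52.2% and 66.4%, or 37.9% and 57.6% after thinning.

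Promoter windows were at hand in RefSeq (GRCm38.p6) for 4 of the 7 genes, Smox, Odc1, Gch1 and Sat1. They are shown because 3 of these genes stood higher in the shBicd2-labelled library and 1 was level. Printed, 5′ to 3′ on the gene's strand, are the bases upstream of the RefSeq start that lie in no annotated exon. Capitals mark matches on either strand to the 6-letter GC box GGGCGG, to TATAAA, or to TGACNNNGC, the core of the antioxidant response element (ARE).
Smox, chr2:131491654-131491763, plus strand: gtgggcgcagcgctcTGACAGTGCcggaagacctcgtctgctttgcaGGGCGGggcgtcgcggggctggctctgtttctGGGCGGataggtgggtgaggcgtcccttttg
Odc1, chr12:17544623-17544793, plus strand: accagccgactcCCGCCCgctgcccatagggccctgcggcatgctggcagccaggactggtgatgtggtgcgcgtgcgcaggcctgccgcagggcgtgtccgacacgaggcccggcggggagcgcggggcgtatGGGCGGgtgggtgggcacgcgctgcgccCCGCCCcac
Gch1, chr14:47189414-47189663, minus strand: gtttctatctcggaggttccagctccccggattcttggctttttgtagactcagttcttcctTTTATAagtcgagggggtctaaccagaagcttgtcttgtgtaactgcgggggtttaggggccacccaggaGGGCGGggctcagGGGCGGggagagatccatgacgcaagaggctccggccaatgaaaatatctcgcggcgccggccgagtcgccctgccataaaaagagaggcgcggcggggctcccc
Sat1, chrX:155216450-155216699, minus strand: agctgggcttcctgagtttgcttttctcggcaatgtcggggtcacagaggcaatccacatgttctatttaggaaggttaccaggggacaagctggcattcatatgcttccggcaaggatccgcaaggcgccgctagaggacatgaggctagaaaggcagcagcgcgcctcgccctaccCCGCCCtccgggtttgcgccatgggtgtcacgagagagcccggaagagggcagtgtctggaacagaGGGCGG

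All 4 windows held a GC box, which 35.7% of 32851 windows of 300 bases hold. The Smox window held TGACNNNGC as TGACAGTGC at position -193 from the RefSeq start, a pattern in 12.4% of all windows, and the Gch1 window held TATAAA on the reverse strand, as do 13.6% on either strand. In none of the 4 windows were letters found for the NF-kB site (20.7% of all windows), the interferon-gamma activated site TTCNNNGAA (8.30%), the interferon-stimulated response element (3.44%), the E-box CACGTG (7.15%) or the cAMP response element TGACGTCA (1.79%). The GC box and ARE patterns were added after the sequences had been seen. The printed stretches hold 67.3%, 77.2%, 59.2% and 59.6% G and C in the order shown, and the Smox stretch lies inside the span that the gene annotation gives to Smox.

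Other genes of the same pathways, from fixed lists, were compared in the hepatocyte barcodes. Of all 9250 genes with at least 50 UMIs, 22% were past 1.5-fold higher and 9.51% lower, or 16% and 14.9% with TMM scaling. Of the arginine and nitric oxide list, 11 of 19 genes had at least 50 UMIs, and 6 of these were past 1.5-fold higher and 1 lower, with a median log2 ratio of 0.68. The urea cycle enzymes made up most of them. Arg1, the liver arginase, went from 556 to 979 CPM (ratio 1.76, 1.67 to 1.85), Ass1 and Asl, which rebuild arginine from citrulline, had ratios of 1.94 (1.77 to 2.13) and 4.15 (3.78 to 4.56), and Cps1, which makes carbamoyl phosphate, had 2.98 (2.75 to 3.23). Oat, which breaks down ornithine, had 1.97 (1.70 to 2.28), and the mitochondrial ornithine carrier Slc25a15 1.60 (1.42 to 1.81), or 1.44 with TMM scaling. The 1 gene past 1.5-fold lower was Slc7a1, another arginine transporter, on 46 and 33 UMIs, with a ratio of 0.632 (0.391 to 1.01). Nos3, the endothelial synthase, had 14 and 19 UMIs and Nos1 none, and a count of 0 allows up to 3.

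Of the 6 other tetrahydrobiopterin genes, all with at least 50 UMIs, 1 was past 1.5-fold higher, against 22% of all genes. This was Qdpr, which recycles the cofactor, at 14.9 and 28.9 CPM (ratio 1.94, 1.42 to 2.69). Spr, Pcbd1 and Pts, with other steps of synthesis and recycling, had ratios of 1.17, 1.37 and 0.827. The polyamine list had 11 of 14 genes with at least 50 UMIs, with a median log2 ratio of 0.20. Of these 11, 1 was past 1.5-fold higher and 2 lower, against 22% and 9.51% of all genes. Azin1, the antizyme inhibitor that protects ornithine decarboxylase, went from 180 to 97.6 CPM (ratio 0.541, 0.479 to 0.610), and Sms, the spermine synthase, had 0.601 (0.358 to 0.996) on 41 and 28 UMIs. Dhps, which uses spermidine to modify the translation factor encoded by Eif5a, had 1.52 (1.17 to 1.97), and 1.36 with TMM scaling. Oaz1, the antizyme, had 1.15 (1.05 to 1.26), the polyamine transporter Atp13a3 1.22 (1.11 to 1.35) and Eif5a 0.999 (0.857 to 1.16). Odc1, Smox and Sat1, all past 1.5-fold higher, were chosen with results known, and the list around them had 1 gene on that side.

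Among genes that induce Nos2 or limit its induction, 10 of 12 had at least 50 UMIs and 5 were past 1.5-fold higher, or 2 with TMM scaling. With TMM scaling that is 20%, near the 16% of all genes, and without it 22% of all genes were past 1.5-fold higher. The interferon regulatory factor Irf1 went from 849 to 1274 CPM (ratio 1.5, 1.44 to 1.57), and the NF-kB subunits Nfkb1 and Rela had 1.59 (1.44 to 1.76) and 1.55 (1.45 to 1.67). With TMM scaling these 3 ratios were 1.35, 1.43 and 1.39. The interferon-gamma receptor chain Ifngr1 stood at 15.1 and 38.0 CPM (2.51, 1.86 to 3.43), and Tnf at 15 and 55 UMIs (3.23, 1.80 to 6.15). Il1r1, a receptor for interleukin-1, had 0.998 (0.965 to 1.03), and Nfkbia, the NF-kB inhibitor, 1.43 (1.36 to 1.5). Of the oxidative stress list 5 of 8 had at least 50 UMIs and 3 were past 1.5-fold higher, with a median log2 ratio of 1.71. These were the glutathione synthesis genes Gclc, at 3.28 (2.95 to 3.66), and Gclm, at 3.52 (2.56 to 4.94), and the peroxiredoxin repair gene Srxn1, at 8.64 (5.96 to 12.9). Txnrd1 had 1.47 (1.31 to 1.66) and Hmox1, which degrades heme, 1.18 (1.12 to 1.25).

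Hepatocytes differ along the lobule, and Nos2 and Slc7a2 lay on opposite sides. Barcodes with more UMIs of 8 pericentral than of 8 periportal markers numbered 349 and 400, and the reverse 1360 and 1523. Nos2 stood at 104 and 61.1 CPM in the pericentral and periportal barcodes of the scramble-labelled library, a ratio of 1.70 (1.27 to 2.24), and at 210 and 145 CPM in the shBicd2-labelled library, a ratio of 1.45 (1.19 to 1.74). Slc7a2 was the reverse in both libraries, with 288 against 451 CPM (0.640, 0.548 to 0.743) and 350 against 601 CPM (0.582, 0.509 to 0.664). Of the 6 members with at least 50 UMIs, 1 (Nos2) was past 1.5-fold higher in the pericentral barcodes of the scramble-labelled library, against 8.99% of all genes, and 3 (Slc7a2, Odc1 and Smox) were past it lower, against 10.4%. For the shBicd2-labelled library these counts were 0 against 7.07% and 1 (Slc7a2) against 11.5%. Both ratios of Nos2 exceeded those of 91.7% or more of the genes, and at most 8.52% of genes had a lower ratio than Slc7a2.

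Gch1 stood higher in pericentral barcodes of the scramble-labelled library, at 1.36 (1.06 to 1.73), and not clearly in the other, at 1.07 (0.831 to 1.38). Smox had only 3 pericentral UMIs against 55 periportal ones in the scramble-labelled library (0.229, 0.0458 to 0.705), and 81 against 427 in the shBicd2-labelled library (0.841, 0.655 to 1.07). Sat1 was slightly periportal in both, at 0.808 (0.740 to 0.881) and 0.909 (0.860 to 0.960). Odc1 had 0.666 (0.427 to 1.0) and 1.08 (0.811 to 1.41). Within the periportal barcodes the ratio of Nos2 between the libraries was 2.37 (1.99 to 2.83), and within the pericentral ones 2.02 (1.52 to 2.71), so it lay above 1.5 on both sides.

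**Figure D2:**
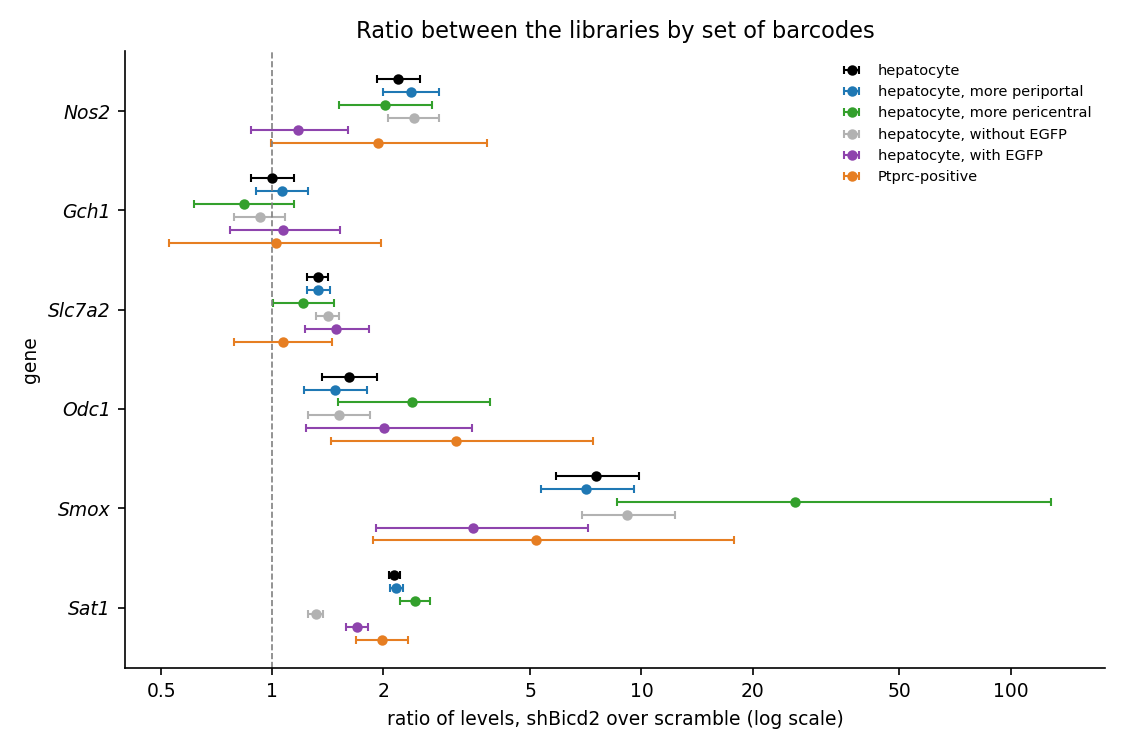
Ratio of the level in the shBicd2-labelled library over the scramble-labelled one (log scale) for 6 genes in 6 sets of barcodes, with exact 95% intervals for counting error. Arg2 is left out for its few UMIs. Nos2 lies at 2.41 without EGFP and 1.18 with it, and Sat1 at 1.31 and 1.70, both under its value of 2.14 over all hepatocyte barcodes.

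EGFP, a reporter sequence in the reference whose vector the labels do not name, moved with Sat1 more than with any other of the 7 genes. In the scramble-labelled library Sat1 stood at 950 CPM in hepatocyte barcodes without an EGFP UMI and at 2537 CPM in those with one, a ratio of 2.67 (2.49 to 2.87). Its level in the shBicd2-labelled library was 1245 and 4307 CPM, a ratio of 3.46 (3.32 to 3.60). Only 90 of 7098 and 75 of 7881 genes had a higher ratio. Members past 1.5-fold higher with EGFP were 3 (Nos2, Smox and Sat1) in the first library, against 8.26% of all genes, and 1 (Sat1) in the second, against 8.81%. None was past it lower, against 44.3% and 40.8%. Smox in the first library rested on 11 UMIs with EGFP and 56 without, with an interval that includes 1 (1.83, 0.866 to 3.54). The level of Sat1 also climbed with the number of EGFP UMIs in the shBicd2-labelled library, from 1245 CPM at 0 to 2442 at 1, 4322 at 2 to 4 and 6339 (6139 to 6545) at 5 or more. For the scramble-labelled library these levels were 950, 2412, 2682 and 2643 CPM, with 11 barcodes in the last bin. Median depth was higher along these bins too, from 1539 to 3044 UMIs and from 1818 to 3759 UMIs.

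EGFP barcodes were 7.12% and 29.3% of the hepatocyte barcodes, and the ratio of Sat1 between the libraries was smaller on either side of this split. It was 1.31 (1.25 to 1.38) without EGFP barcodes and 1.70 (1.59 to 1.82) within them, against 2.14 over both, so the 4 genes past 1.5-fold became 3. For Nos2 the ratio between the libraries was 2.41 (2.06 to 2.83) without EGFP and 1.18 (0.875 to 1.61) within EGFP barcodes. In the scramble-labelled library Nos2 was 2.07 (1.51 to 2.79) times as high with EGFP, at 141 against 67.9 CPM, whereas in the shBicd2-labelled library it was 166 against 164 CPM. Smox stood at 143 CPM without EGFP and 100 CPM with it in the shBicd2-labelled library (0.701, 0.582 to 0.842). Of 7881 genes there, 45.9% had a lower ratio of with over without EGFP than Smox, and 77.5% a lower one than Nos2. Between the libraries, Smox had a ratio of 9.15 (6.91 to 12.3) without EGFP barcodes and 3.50 (1.91 to 7.15) within them. The part of EGFP and of depth in the level of Sat1 was not tested.

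**Figure D3:**
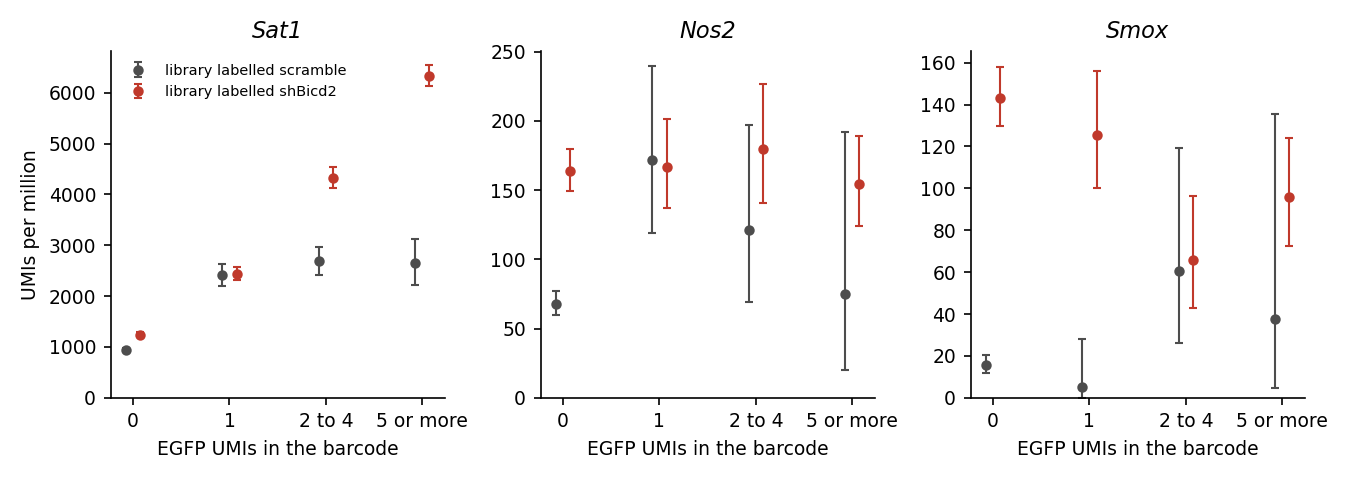
Level of Sat1, Nos2 and Smox in hepatocyte barcodes (CPM) by the number of EGFP UMIs in the barcode, for both libraries, with exact 95% Poisson intervals. Sat1 in the shBicd2-labelled library climbs from 1245 to 6339 CPM, while Nos2 there stays between 154 and 180 CPM.

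Hepatocyte barcodes were also split at 1% mitochondrial UMIs. In the shBicd2-labelled library, barcodes with at least 1% mitochondrial UMIs held less Nos2 (120 against 172 CPM; 0.699, 0.544 to 0.888) and less Sat1 (0.617, 0.577 to 0.659) than those under 1%. Nos2 had 1.17 (0.819 to 1.64) and Sat1 0.861 (0.779 to 0.95) in the scramble-labelled library. Slc7a2 stood lower at 1% or more in both, at 0.762 and 0.729. In barcodes under 1% the ratio of Nos2 between the libraries was 2.34 (2.02 to 2.71), and in those with at least 1% it was 1.39 (0.938 to 2.10), on 40 and 76 UMIs. The latter is under 1.5-fold with an interval that includes 1.

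Detection beside Nos2 was read in hepatocyte barcodes thinned to 1000 UMIs, where 88 of 1647 barcodes in the scramble-labelled library and 197 of 1818 in the shBicd2-labelled library were Nos2-positive. The positive barcodes differed little from the rest in what the gate measures, though the gate itself limits marker counts in both sets. Hepatocyte markers made up a median of 1.05% and 1.26% of their UMIs, against 1.02% and 1.35% in negative barcodes, and other cell types' markers summed to 93.9 and 230 CPM against 87.5 and 207 CPM. Their median depth before thinning was 2292.5 against 1989 UMIs and 2093 against 1996 UMIs, and an EGFP UMI was present in 14.8% against 7.38% and in 34.0% against 32.8%. Over all genes with at least 30 thinned UMIs in the positive barcodes, the median ratio of positive over negative was 1.11 and 1.08, with 18.2% and 15.4% of genes past 1.5-fold higher and 4.95% and 7.71% lower.

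In the shBicd2-labelled library Smox was the member whose level ratio beside Nos2 had an interval clear of 1. It was present in 19.3% of Nos2-positive and 10.7% of Nos2-negative barcodes, a level ratio of 1.89 (1.34 to 2.60). In the scramble-labelled library the positive barcodes held 2 Smox UMIs, too few for a direction (1.31, 0.151 to 5.22). Gch1, the cofactor gene, had 0.909 (0.385 to 1.83) and 1.48 (0.962 to 2.21), and Slc7a2, the transporter, 0.750 (0.495 to 1.09) and 1.14 (0.937 to 1.38), so neither had an interval clear of 1 after thinning. Without thinning, Gch1 had 1.63 (1.33 to 1.99) in the shBicd2-labelled library and Slc7a2 0.628 (0.526 to 0.744) in the scramble-labelled library, and both intervals exclude 1. Odc1 was seen in 1 of the 88 and 11 of the 197 positive barcodes (0.224, 0.00561 to 1.29, and 0.743, 0.386 to 1.31), and without thinning its ratio in the scramble-labelled library was 1.19 (0.799 to 1.72) on 34 UMIs. Sat1 had 1.24 (1.01 to 1.52) and 1.07 (0.965 to 1.18), or 1.65 (1.53 to 1.78) and 1.23 (1.17 to 1.28) without thinning, and no Nos2-positive barcode held Arg2.

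Several urea cycle and ornithine genes lay the other way. Arg1, the arginase that draws on the same arginine, stood at 409 CPM in Nos2-positive and 588 CPM in Nos2-negative barcodes of the scramble-labelled library (0.695, 0.484 to 0.970), and at 604 and 1023 CPM in the shBicd2-labelled library (0.591, 0.486 to 0.712). Cps1 had 0.427 (0.183 to 0.851) and 0.489 (0.371 to 0.634). Ass1, Asl, Oat and Slc25a15 also had ratios under 1 in both libraries, from 0.497 to 0.811 in the first and from 0.512 to 0.714 in the second, with intervals that exclude 1 only in the shBicd2-labelled library. Otc, with 2.83 (0.717 to 8.21) on 4 UMIs and 0.588 (0.0678 to 2.33) on 2 UMIs in positive barcodes, and Nags, with 1.28 (0.501 to 2.74) and 0.93 (0.481 to 1.65), did not lie under 1 in both. Nos2-positive barcodes were also more often pericentral, 25% against 17.4% and 19.8% against 15.1%. Among Nos2-negative barcodes, Arg1, Ass1, Asl and Cps1 stood higher in periportal than in pericentral ones in both libraries. Oat was the reverse, at 40.1 CPM in periportal against 195 CPM in pericentral barcodes, and 88.0 against 331 CPM. Within the periportal barcodes alone Arg1 had 0.765 (0.505 to 1.11) and 0.634 (0.508 to 0.783), and Cps1 0.540 (0.215 to 1.13) and 0.552 (0.406 to 0.734). Within the 39 Nos2-positive pericentral barcodes of the shBicd2-labelled library they had 0.830 (0.439 to 1.45) and 0.861 (0.396 to 1.67).

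**Figure D4:**
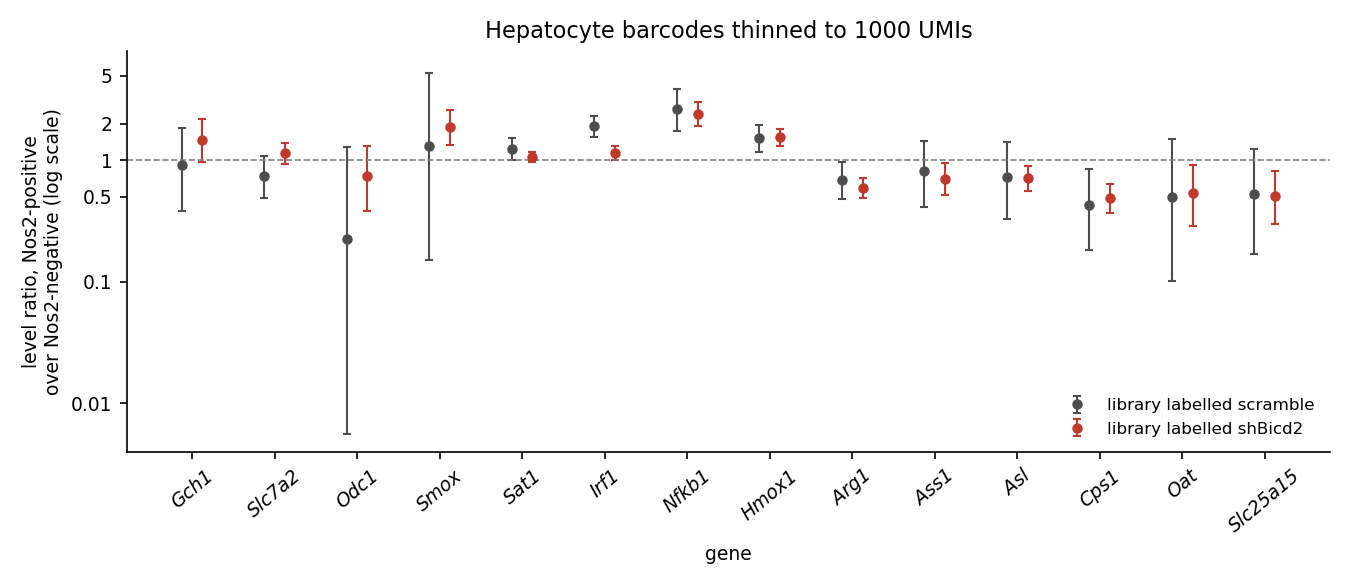
Level in Nos2-positive over Nos2-negative hepatocyte barcodes thinned to 1000 UMIs (log scale), for 5 members and 9 pathway genes, with exact 95% intervals for counting error, in both libraries. Nfkb1 lies at 2.65 and 2.43 and Hmox1 at 1.53 and 1.55, while Arg1 lies at 0.695 and 0.591 and Cps1 at 0.427 and 0.489.

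The genes most like Nos2, ranked by the lower of both libraries' ratios of positive over negative barcodes, were Gbp4, Ripk2, Nfkb1, Plpp3 and Rnd1. Gbp4, an interferon-inducible guanylate-binding protein, had 2.75 (1.99 to 3.72) in the scramble-labelled library and 2.76 (2.23 to 3.39) in the shBicd2-labelled library. Ripk2, a kinase of the NOD receptor pathway, had 2.68 (1.83 to 3.82) and 2.63 (1.94 to 3.52), and Nfkb1 2.65 (1.76 to 3.88) and 2.43 (1.93 to 3.03). Plpp3, a lipid phosphatase, had 3.57 (2.33 to 5.31) and 2.23 (1.54 to 3.17), and Rnd1, a small GTPase, 2.14 (1.68 to 2.68) and 2.19 (1.83 to 2.62). Of 378 genes measured in both libraries, 23 (6.08%) were past 1.5-fold higher in both. Irf1 had 1.91 (1.57 to 2.32) in the scramble-labelled library and 1.15 (1.0 to 1.31) in the shBicd2-labelled library, where its level in Nos2-negative barcodes was higher, 1126 against 682 CPM. Hmox1 had 1.53 (1.17 to 1.97) and 1.55 (1.32 to 1.81). Srxn1 was found in 0 of the 88 positive barcodes of the scramble-labelled library, which allows a share of up to 3.41%, and in 27 of 197 of the shBicd2-labelled library (2.89, 1.95 to 4.20).

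Barcodes were also ordered by their Nos2 UMIs without thinning, for genes chosen after their values had been seen. From 0 to 3 or more Nos2 UMIs, Gbp4 went from 227 to 1180 CPM in the scramble-labelled library and from 204 to 675 CPM in the shBicd2-labelled library, where the bin of 2 UMIs stood at 790 CPM. Smox went from 106 to 298 (232 to 378) CPM in the shBicd2-labelled library and stayed between 9.09 and 19.99 CPM in the scramble-labelled library, on 1 to 6 UMIs in each bin above 0. Arg1 went from 596 to 210 CPM and from 1081 to 447 CPM. The last bins hold 26 and 80 barcodes. Depth moved with the bins: the median was 1792.5 UMIs at 0 and 3583 UMIs at 3 or more Nos2 UMIs in the scramble-labelled library, and 1585 and 2723 UMIs in the shBicd2-labelled library. Its part in these levels was not tested.

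**Figure D5:**
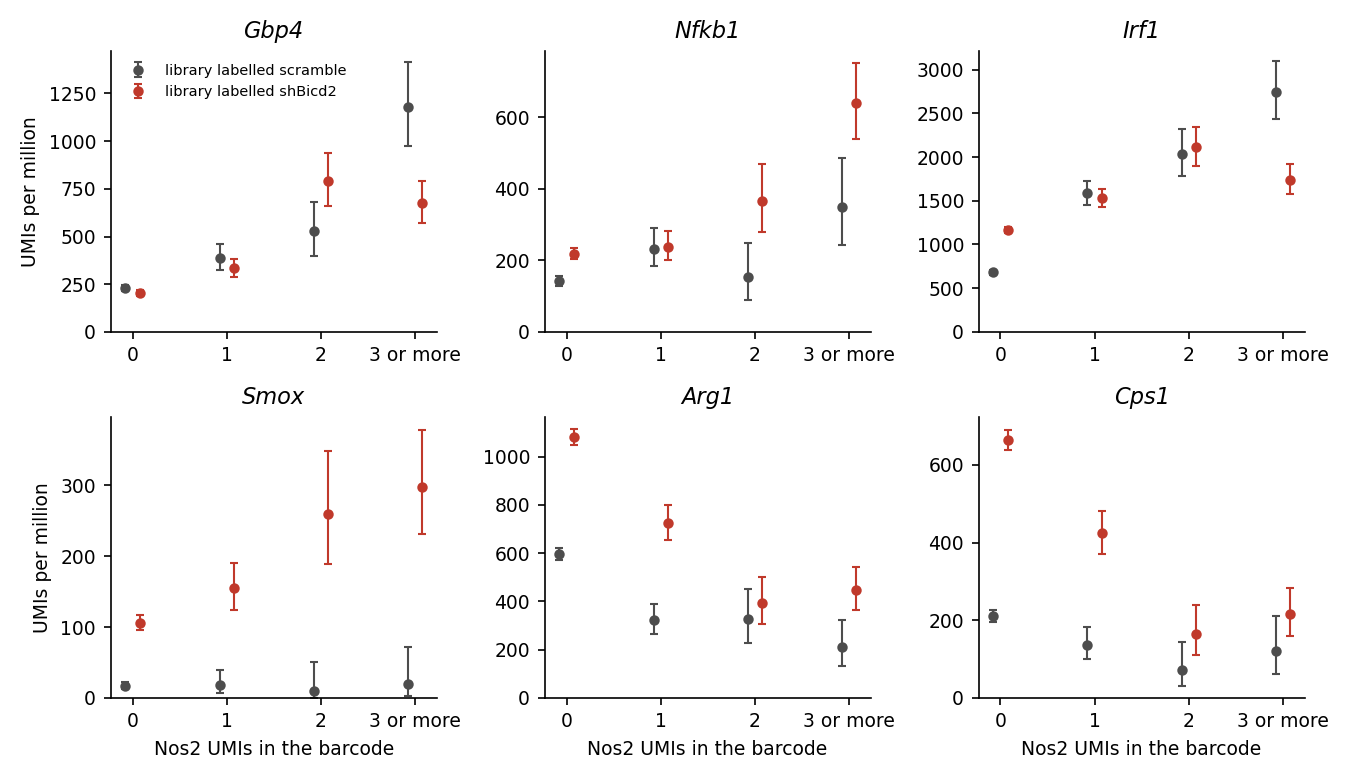
Level of 6 genes in hepatocyte barcodes (CPM, Nos2 itself left out of the total) by the number of Nos2 UMIs in the barcode, for both libraries, with exact 95% Poisson intervals. Arg1 and Cps1 are lower and Gbp4 and Irf1 higher in barcodes with 3 or more Nos2 UMIs than in those with 0, in both libraries.

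In Ptprc-positive barcodes the members stood near their levels in hepatocyte barcodes. Nos2 had 17 UMIs in 11 of 152 barcodes of the scramble-labelled library, or 66.6 (38.8 to 107) CPM, and 24 UMIs in 16 of 114 barcodes of the shBicd2-labelled library, or 128 (82.3 to 191) CPM. These were 0.889 (0.511 to 1.45) and 0.781 (0.497 to 1.17) of the hepatocyte level of the same library. For Gch1, Slc7a2, Odc1, Smox and Sat1 that fraction ran from 0.729 to 1.16 in the scramble-labelled library and from 0.789 to 1.42 in the shBicd2-labelled library. With hepatocyte markers also near the hepatocyte level there, these values are not read as expression by leukocytes.

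Between the libraries, Nos2 had a ratio of 1.93 (0.993 to 3.82) in Ptprc-positive barcodes, Odc1 3.14 (1.44 to 7.39) on 10 and 23 UMIs, Smox 5.19 (1.87 to 17.8) on 5 and 19 UMIs and Sat1 1.98 (1.69 to 2.33). Gch1 and Slc7a2 had 1.02 (0.524 to 1.97) and 1.07 (0.785 to 1.45), and Arg2 1 UMI in each library. Thus 4 of the 6 genes with at least 10 UMIs were past 1.5-fold higher, where 24.2% of 6405 genes with at least 10 UMIs were past it higher and 22.7% lower. Of genes with at least 50 UMIs the shares were 16.1% and 21.2% of 1524.

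The 27 and 41 Ptprc-positive barcodes with at least 2 markers of 1 immune class gave other values. Sat1 stood at 1052 and 988 CPM there, a ratio of 0.939 (0.630 to 1.41), and in the shBicd2-labelled library this was 0.418 (0.319 to 0.538) of the hepatocyte level. In the 125 and 73 barcodes with fewer immune markers the ratio of Sat1 was 2.49. Nos2 had 3 and 6 UMIs, Slc7a2 a ratio of 0.521 (0.263 to 1.01), and Smox 0 and 8 UMIs, so that it was at least 1.96-fold higher in the shBicd2-labelled library when the 0 is set to 3 UMIs. Among barcodes with monocyte or macrophage markers, a known source of inducible nitric oxide synthase, 14 and 13 were Ptprc-positive and held 2 and 0 Nos2 UMIs. Without regard to Ptprc, 27 and 46 barcodes outside the hepatocyte gate held such markers and 2 and 11 Nos2 UMIs, or 59.6 and 169 CPM. After thinning, 5 and 6 Ptprc-positive barcodes held Nos2, too few to describe what else they carry.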

How the data were processed

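The authors deposited raw UMI counts for each gene in each barcode, from libraries of the 10x kit version 3.1, per the labels' protocols. The file headers name Cell Ranger 6.1.2, and the submitters' processing notes list Cell Ranger 6.0.1, Seurat 4.0.3 and build mm10. For doublet removal before deposit and the counting of intronic reads, the sources used here give nothing. Group names come from the sample titles.

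A barcode was kept if it had 200 genes or more and no more than 25% mitochondrial UMIs. Scrublet (scanpy 1.11.5) was then used to drop the highest-scoring 0.8% per 1000 barcodes, or 62 and 73. UMIs were summed per library and class (numpy 2.4.6, pandas 2.3.3) and scaled by the UMIs of the class to CPM. Intervals (scipy 1.17.1) are at 95%: exact Poisson for levels, Clopper-Pearson for shares and exact conditional binomial for ratios. Those of ratios and shares were tested on simulated Poisson and binomial counts, which lack the extra spread between barcodes seen here. In hepatocyte barcodes the variance of UMIs was 2.12 and 3.02 times the mean for Nos2, and 12.8 and 23.0 times for Sat1. The intervals do not cover that spread. Thinning used 1 draw with seed 1. No p-value was computed, because barcodes are not replicates.

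The members and the gene lists were chosen with earlier results of these data known. Named genes are the members, the 4 genes of each list with the most UMIs and any past 1.5-fold with at least 50 UMIs, and the 5 genes most like Nos2 among those with at least 30 thinned UMIs in the Nos2-positive barcodes of each library. Gene coordinates were read from GENCODE (GRCm38, which is mm10). Alternatives were TMM factors (edgeR 4.0.16), other depths, mitochondrial limits, doublet removal, EGFP barcodes left out and other gates. No column was left unmapped. A gene among those most like Smox is not reported here.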

Additional observations from a re-analysis of the deposited data

Results flagged for a closer look

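The level of Sat1 lay on opposite sides in barcodes that held Odc1 in the 2 libraries. In hepatocyte barcodes thinned to 1000 UMIs, the level of Sat1 in Odc1-positive over Odc1-negative barcodes was 0.590 (0.430 to 0.790) in the scramble-labelled library, with 78 positive barcodes, and 1.54 (1.40 to 1.70) in the shBicd2-labelled library, with 142. Both intervals exclude 1 but do not cover the uneven spread of Sat1 UMIs over barcodes. In the scramble-labelled library 30.8% (20.8% to 42.2%) of Odc1-positive and 38.2% (35.8% to 40.7%) of Odc1-negative barcodes held Sat1. These shares were 63.4% (54.9% to 71.3%) and 57.2% (54.8% to 59.5%) in the shBicd2-labelled library, so their intervals overlap in both. The difference between the libraries was not tested. EGFP, beside which Sat1 is high, was present in 2.56% of Odc1-positive and 8.03% of Odc1-negative barcodes of the scramble-labelled library, and in 39.4% and 32.3% of those of the shBicd2-labelled library. Without EGFP barcodes the level ratios were 0.722 (0.526 to 0.969) and 1.21 (0.996 to 1.46). Within EGFP barcodes the shBicd2-labelled library had 1.49 (1.33 to 1.68) on 56 Odc1-positive barcodes, and the scramble-labelled library held 2 such barcodes, with 0 Sat1 UMIs.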

How the results depend on the processing

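In hepatocyte barcodes the ratio of Nos2 lay between 1.97 with TMM factors and 2.51 after thinning over all 9 alternatives, of which 2 gates were added after seeing the data. The count of 4 genes past 1.5-fold became 3 with TMM factors and without a minimum of hepatocyte marker UMIs, where Odc1 had 1.45 and 1.46, and 3 with EGFP barcodes left out, where Sat1 had 1.31. Ptprc-positive results rest on few UMIs. With at least 2 Ptprc UMIs the ratio of Nos2 was 0.359 (0.00760 to 3.21) on 6 UMIs. The count of 4 genes became 2 with EGFP barcodes left out and 2 with at least 2 markers of 1 immune class. Gch1 lay on both sides of 1 over the settings, from 0.799 to 1.32. With at least 2 Ptprc UMIs, directions turned for Nos2, as given, and for Slc7a2, from 1.07 to 0.476 (0.201 to 1.01). They also turned for Smox after thinning, at 0.742 on 6 UMIs, and for Sat1 and Slc7a2 with at least 2 immune markers, at 0.939 and 0.521. Smox gave no ratio in the latter set, with 0 UMIs in the scramble-labelled library. With no minimum of UMIs, 33.5% of all genes were past 1.5-fold higher and 16.8% lower in hepatocyte barcodes, and 31.0% and 28.6% in Ptprc-positive ones. No paired analysis was possible because each group is 1 library.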

Other observations

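The genes most like Sat1 and Smox were read by the same measure as those most like Nos2, and were chosen after their values had been seen. Ccn1, a matrix-associated signalling protein, had the highest lower ratio in Sat1-positive over Sat1-negative hepatocyte barcodes thinned to 1000 UMIs, with 6.15 (3.5 to 11.4) in the scramble-labelled library and 5.36 (3.86 to 7.62) in the shBicd2-labelled library. It was followed by the histone genes Hist1h1d, with 5.07 and 9.0, Hist1h4n, with 3.88 and 5.78, and Hist1h1e, with 3.57 and 5.76, and by the heat shock gene Hspa1b, with 3.56 and 4.21. Genes beside Smox included Nrg4, a secreted growth factor, with 1.81 (1.27 to 2.49) and 1.63 (1.43 to 1.85), and Vegfa, the vascular growth factor, with 1.83 and 1.49.

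Barcodes that held Sat1 held less Slc7a2 in both libraries, at 0.724 (0.613 to 0.853) and 0.833 (0.734 to 0.945) of the level in Sat1-negative barcodes. Slc7a2 also stood lower in barcodes with EGFP, beside which Sat1 is high, at 0.722 (0.592 to 0.873) and 0.761 (0.697 to 0.830). Of all genes, 50.2% and 54.9% had a lower ratio of with over without EGFP than Slc7a2. The part of EGFP in the ratios beside Sat1 was not tested. Nos2 stood higher in Smox-positive barcodes of the shBicd2-labelled library, at 2.16 (1.62 to 2.83), with 212 positive barcodes. This rests on the same 38 barcodes with both genes as the ratio of Smox beside Nos2, so it is not a separate result. In the scramble-labelled library 28 positive barcodes held 2 Nos2 UMIs.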
